A study of Homo sapiens with 16 samples.

Results

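The genes described here are the HLA class I heavy chains HLA-B, HLA-C, HLA-E and HLA-F, the light chain B2M and the transactivator NLRC5. They were taken by gene symbol from the count table, in which they are 6 of 59428 genes. The rule itself uses no measured value, but the genes were chosen with earlier results of these data known. The RNA came from 2 serous ovarian carcinoma cell lines, OVCAR3, which is wild type for BRCA1, and UWB1.289, which carries a BRCA1 mutation. Olaparib inhibits PARP enzymes, which help to repair DNA strand breaks. OVCAR3 was given olaparib at 7.5 µM and UWB1.289 at 3.5 µM, each dose having been set from the IC50 of that line, and the controls of each line received the solvent DMSO alone. All cells were collected after 96 h, and each of the 4 groups of line and treatment holds 4 replicates, which gives 16 libraries. Each BRCA1 status is represented by 1 line, the lines were grown in different media, and each carries its own HLA alleles, so that line, BRCA1 status, dose, medium and alleles cannot be told apart.

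HLA class I molecules present short peptides from inside the cell to CD8+ T cells. HLA-B and HLA-C are classical, highly polymorphic heavy chains, HLA-E shows leader peptides of other class I chains to NKG2A receptors of natural killer cells, and HLA-F is a further non-classical chain. B2M is the light chain that pairs with class I heavy chains. NLRC5 has no DNA-binding domain of its own and acts on class I and B2M promoters through a complex that binds the W/S, X1, X2 and Y boxes, while interferon signalling, in part through IRF1, raises both NLRC5 and the class I genes directly.

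In the hg38 assembly the heavy chains lie in the major histocompatibility complex, HLA-F at chr6:29722775-29738528 and HLA-E at chr6:30489509-30494194 on the plus strand, HLA-C at chr6:31268749-31272130 and HLA-B at chr6:31353872-31367067 on the minus strand. B2M lies at chr15:44711358-44718851 and NLRC5 at chr16:56989485-57083531, both on the plus strand. All 6 are protein-coding genes in GENCODE release 44. RefSeq promoter sequence (GRCh38.p14) was used for 4 of the 6 genes, HLA-B, HLA-C, HLA-F and B2M, and the stretch from 190 to 45 bases before the annotated start is shown because it holds the shared class I elements, with capitals for the motif matches found in it. The stretches are chr6:31357224-31357369 (minus strand) for HLA-B, chr6:31272137-31272282 (minus strand) for HLA-C, chr6:29723244-29723389 (plus strand) for HLA-F and chr15:44711327-44711472 (plus strand) for B2M.
HLA-B: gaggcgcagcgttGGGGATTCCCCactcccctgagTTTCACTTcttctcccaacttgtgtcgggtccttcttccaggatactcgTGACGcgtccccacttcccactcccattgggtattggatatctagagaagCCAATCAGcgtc
HLA-C: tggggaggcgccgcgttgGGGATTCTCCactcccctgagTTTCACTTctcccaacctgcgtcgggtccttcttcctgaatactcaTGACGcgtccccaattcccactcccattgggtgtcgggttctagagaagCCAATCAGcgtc
HLA-F: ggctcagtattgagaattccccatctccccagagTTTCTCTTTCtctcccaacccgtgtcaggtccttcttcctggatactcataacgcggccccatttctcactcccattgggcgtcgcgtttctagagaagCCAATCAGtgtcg
B2M: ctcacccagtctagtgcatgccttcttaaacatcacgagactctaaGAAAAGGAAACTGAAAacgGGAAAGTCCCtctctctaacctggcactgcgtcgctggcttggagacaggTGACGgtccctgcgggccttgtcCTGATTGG

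Motifs were searched on both strands of the window from 250 bases before to 50 bases after the start. The Y box was searched as CTGATTGG, the core of the X2 box as TGACG, the interferon-stimulated response element (ISRE) as TTTC, any 2 bases and TTTC again, a shorter form of it as TTTCNNTT, which every full match contains, the interferon-gamma activated site (GAS) as TTCNNNGAA, and the NF-kB site by its consensus. All 4 promoters held a match to CTGATTGG, as did 3.97% of the 35116 promoters in the table. It lay from 56 to 49 bases before the start in HLA-B and HLA-C, from 57 to 50 in HLA-F and from 52 to 45 in B2M. The match read CCAATCAG, on the opposite strand, in HLA-B, HLA-C and HLA-F, and CTGATTGG in B2M. The X2 core lay from 106 to 102 bases before the start in HLA-B, 105 to 101 in HLA-C and 75 to 71 in B2M. Strand and spacing of these matches thus differed between B2M and the heavy chains, and a match need not be the Y box of its gene. Before CCAATCAG, each printed heavy-chain stretch also reads cccattggg, with the ATTGG that ends the B2M match. This shorter form was not searched for, and which of them is the Y box was not tested. The X2 core was found in HLA-B, HLA-C and B2M and is common, with a match in 24.6% of all promoters. The full ISRE pattern was found in HLA-F and B2M (3.57% of all promoters), whereas HLA-B and HLA-C held only the shorter form (22.8%). The NF-kB consensus was found in HLA-B, HLA-C and B2M (5.91%), and the GAS pattern, held by 7.66%, was found in none of the 4 windows. Over the printed stretches HLA-B and HLA-C were 87.3% identical, HLA-B and HLA-F 80.4% and HLA-C and HLA-F 78.9%, while B2M reached 40.4% to 43.4% with the heavy chains. These are reference sequences and not the alleles of the lines, GENCODE lists transcripts of HLA-B, HLA-F and B2M that start farther upstream, and no binding was measured.

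**Figure D1:**
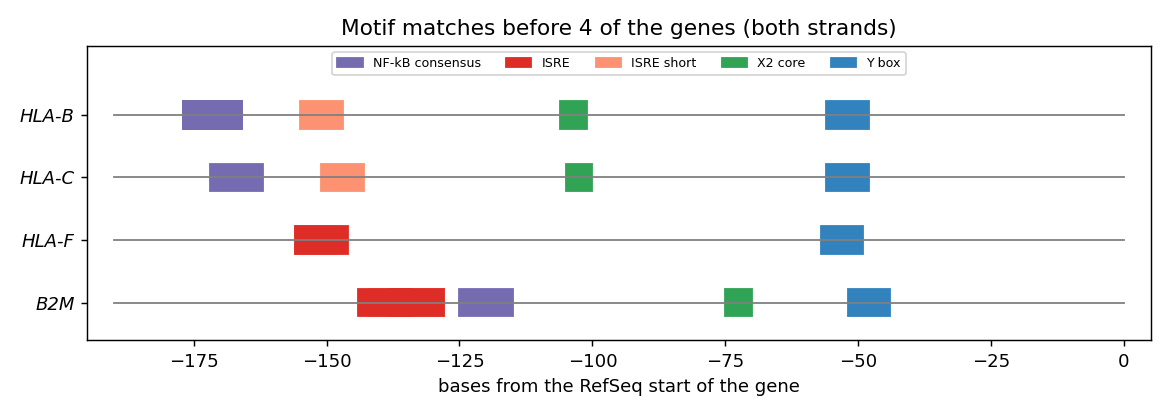
Motif matches before HLA-B, HLA-C, HLA-F and B2M, by distance in bases from the RefSeq start (0 on the horizontal axis), 1 row per gene and 1 colour per motif on either strand. The colour named Y box marks matches to CTGATTGG on either strand, which need not be the Y box of the gene. These matches end 45 to 50 bases before the start in all 4 genes, and matches that overlap are drawn as 1 block.

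The libraries held 5599571 to 7730228 counts of reads per gene (median 6413979.5), taken from the 3' ends of transcripts. Chi-square values per gene between replicates were at least 2.89, so no library was a repeat of another, and olaparib replicate 4 of OVCAR3 stood apart from its group (7.69 to 11.8 per gene, against 3.45 to 4.38 among the other 3). The olaparib replicates of UWB1.289 ranged from 3.02 to 7.66. Of 8 markers of ovarian carcinoma, among them PAX8 and EPCAM, 7 or 8 had counts in each group, whereas WT1 had 0 counts in the UWB1.289 controls and 4 in total with olaparib. They summed to 3948 to 4165 CPM with DMSO and 2497 to 2861 CPM with olaparib in OVCAR3, CPM being counts divided by the effective library size, and to 7437 to 8041 and 5767 to 7101 CPM in UWB1.289. In OVCAR3 5 of the 8 fell and 1 rose, the keratins KRT8 and KRT18 most (log2 fold changes -1.05 and -1.02, adjusted p = 2.26e-07 and 2.72e-09), and in UWB1.289 2 of 7 tested fell, the same keratins (-0.30 and -0.40, adjusted p = 0.0652 and 0.00250), and MUC16 rose (0.69, adjusted p = 0.0114). Leukocyte markers, which matter because leukocytes are rich in class I, summed to between 1.78 and 4.005 CPM in OVCAR3. In UWB1.289 they summed to between 8.51 and 12.1 CPM with DMSO and between 16.6 and 22.2 CPM with olaparib, with CD3E, MS4A1 and NKG7 at 0 counts in both groups and PTPRC at 32 to 48 and 25 to 69 counts. CD14 was the leukocyte marker that rose there (log2 fold change 1.28, adjusted p = 0.00374). Fibroblast markers summed to 22.1 to 30.2 CPM with DMSO and 31.5 to 39.5 CPM with olaparib in OVCAR3, and to 44.05 to 61.1 and 25.1 to 31.6 CPM in UWB1.289, with 1 to 3 of the 5 at 0, and endothelial markers to at most 10.1 CPM. The part of these markers in the results below was not tested. In RNA from whole cultures, fewer cells that express a gene and less RNA per cell cannot be told apart.

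CPM was scaled with TMM factors throughout, and a gene was counted as changed at an adjusted p below 0.1 in edgeR's quasi-likelihood test over all tested genes. Because the heavy chains are similar to each other and differ between people, reads of one may have been lost or assigned to another, and their levels are uncertain for that reason. HLA-B, HLA-C, HLA-E and B2M, the 4 members tested in both lines, rose with olaparib in each. HLA-F and NLRC5 were tested in UWB1.289 alone and rose there, but entered the test through the olaparib libraries. Of the 4 libraries that had to reach 1.57 CPM, HLA-F had 4 with olaparib and 1 with DMSO and NLRC5 4 and 0, so that being high with olaparib was a condition of their test and they add no support to the count. HLA-B rose most among the heavy chains with large counts, to 2.80-fold in OVCAR3 and 2.56-fold in UWB1.289, B2M rose 1.58-fold and 1.62-fold, HLA-C 1.38-fold and 1.67-fold, and HLA-E 1.25-fold and 1.40-fold. NLRC5 rose 4.77-fold in UWB1.289 from a few counts per library and was too low to be tested in OVCAR3. Of all tested genes, 15.5% rose in OVCAR3 (31.5% changed in either direction) and 7.77% rose in UWB1.289 (13.9% in either direction). With the further limits that the study set, a change above 2-fold and an average normalized count above 10, HLA-B remained in OVCAR3 (2.90% of all tested genes being called higher). In UWB1.289 HLA-B remained as well (1.93%). HLA-F and NLRC5 also passed these limits there, but being high with olaparib was a condition of their test, so they are not set against that share.

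**Figure D2:**
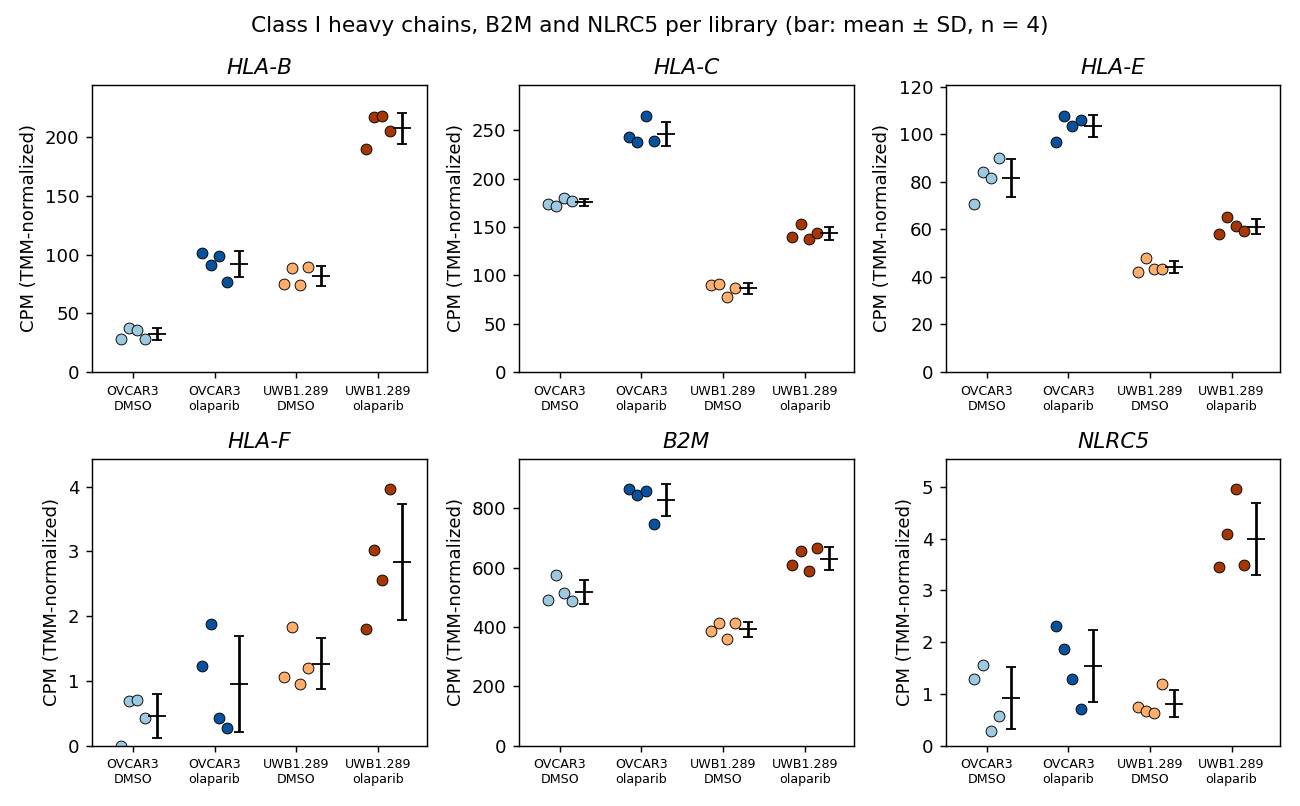
Level of each gene (CPM with TMM factors, linear axes from 0) in the 16 libraries, with 1 point per library and a bar for mean ± SD of the 4 replicates. Olaparib libraries of HLA-B, HLA-C, HLA-E and B2M lie above the DMSO libraries of the same line, and NLRC5 is set apart in UWB1.289 with olaparib (3.45 to 4.95 CPM).

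HLA-B, a classical heavy chain, stood at 28.0, 37.2, 36.1 and 28.5 CPM in OVCAR3 with DMSO (replicates 1 to 4) and at 101, 91.3, 98.7 and 76.9 CPM with olaparib. In UWB1.289 it stood at 74.8, 89.0, 74.2 and 89.2 CPM with DMSO and at 189.6, 217, 218 and 205 CPM with olaparib. Every olaparib library was above every DMSO library of its line, and the lowest olaparib value in OVCAR3 was that of replicate 4, the library that stood apart. The log2 fold change was 1.49 ± 0.116 (SE, n = 4 per group) in OVCAR3, with an adjusted p of 1.19e-08, and 1.57 without that library. In UWB1.289 it was 1.36 ± 0.0893, with an adjusted p of 1.98e-10. Only 1.32% of tested genes in OVCAR3 and 1.14% in UWB1.289 had a larger log2 fold change.

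HLA-C, the other classical heavy chain, was at 174, 171, 180.0 and 176 CPM in OVCAR3 with DMSO and at 243, 238, 265 and 239 CPM with olaparib. In UWB1.289 the values were 90.2, 91.0, 78.1 and 87.2 CPM with DMSO and 139.9, 153, 138 and 143 CPM with olaparib. The groups did not overlap in either line, and all OVCAR3 controls were above all UWB1.289 libraries, treated ones included. HLA-C rose by a log2 fold change of 0.47 ± 0.0712 in OVCAR3 (adjusted p = 5.94e-05) and of 0.74 ± 0.0838 in UWB1.289 (adjusted p = 1.52e-06).

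HLA-E, the ligand of NKG2A, was at 70.9, 84.0, 81.4 and 90.0 CPM in OVCAR3 with DMSO and at 96.9, 108, 104 and 106 CPM with olaparib. In UWB1.289 it was at 42.1, 47.9, 43.3 and 43.3 CPM with DMSO and at 58.1, 65.2, 61.6 and 59.2 CPM with olaparib. The groups were separate in both lines, though by a narrow margin in OVCAR3. The log2 fold change was 0.32 ± 0.0839 in OVCAR3 (adjusted p = 0.00789) and 0.48 ± 0.0950 in UWB1.289 (adjusted p = 0.00180), the smallest among the members tested in each line.

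HLA-F, the other non-classical chain, was near the detection limit. It had 0, 4, 5 and 3 counts in OVCAR3 with DMSO and 8, 12, 3 and 2 with olaparib, and 7, 11, 6 and 9 counts in UWB1.289 with DMSO and 11, 17, 16 and 26 with olaparib. The groups overlapped in both lines. In OVCAR3 it did not pass the filter on low counts, and a two-sided exact permutation test of CPM gave p = 0.286. In UWB1.289 the log2 fold change was 1.18 ± 0.372 with an adjusted p of 0.0486, while the exact permutation test gave p = 0.0571, and the adjusted p lay between 0.0289 and 0.193 over the alternatives tried. It was above 0.1 in the fit to all 16 libraries (0.112) and on leaving out DMSO replicate 1, 3 or 4 or olaparib replicate 4 of UWB1.289 (0.120, 0.117, 0.114 and 0.193). HLA-F overlaps its antisense gene HLA-F-AS1, which had 9 to 14 counts in UWB1.289 with DMSO and 6 to 19 with olaparib, and because the strand setting of the counting is not given in the sources used here, reads of the pair cannot be told apart.

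B2M, the class I light chain, was at 491, 576, 516 and 489 CPM in OVCAR3 with DMSO and at 864, 844, 858 and 747 CPM with olaparib. In UWB1.289 it was at 388, 413, 359 and 413 CPM with DMSO and at 608, 657, 590.1 and 668 CPM with olaparib. The groups did not overlap in either line, and the OVCAR3 olaparib library with the lowest value was again replicate 4. The log2 fold change was 0.66 ± 0.0755 in OVCAR3 (adjusted p = 2.32e-06), 0.71 without that library, and 0.70 ± 0.0765 in UWB1.289 (adjusted p = 1.03e-06).

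NLRC5, the transactivator of the class I genes, had 8, 9, 2 and 4 counts in OVCAR3 with DMSO and 15, 12, 9 and 5 with olaparib. In UWB1.289 it had 5, 4, 4 and 9 counts with DMSO and 21, 23, 31 and 23 with olaparib. The OVCAR3 groups overlapped, whereas in UWB1.289 the lowest treated library (21 counts) was well above the highest control (9 counts). In OVCAR3 it did not pass the filter on low counts, the exact permutation test gave p = 0.229, and without the filter the log2 fold change was 0.73 ± 0.529 (adjusted p = 0.439), so that a change was not detectable at this depth. In UWB1.289 the log2 fold change was 2.26 ± 0.358 with an adjusted p of 1.64e-04, and 0.298% of tested genes had a larger one.

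Treated and control libraries were separate, and higher with olaparib, for all 4 members tested in both lines. Of all tested genes, 13.7% in OVCAR3 and 7.26% in UWB1.289 were higher without overlap. NLRC5 was also separate in UWB1.289, but being high with olaparib was a condition of its test, so it adds no support. The median log2 fold change of the 4 members tested in both lines was 0.56 in OVCAR3 and 0.72 in UWB1.289, and the medians of all tested genes were -0.01 and -0.004. In UWB1.289, 990 genes rose and 778 fell, a split that became 1180 and 604 when libraries were scaled by total counts alone, with the calls of the members as before.

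**Figure D3:**
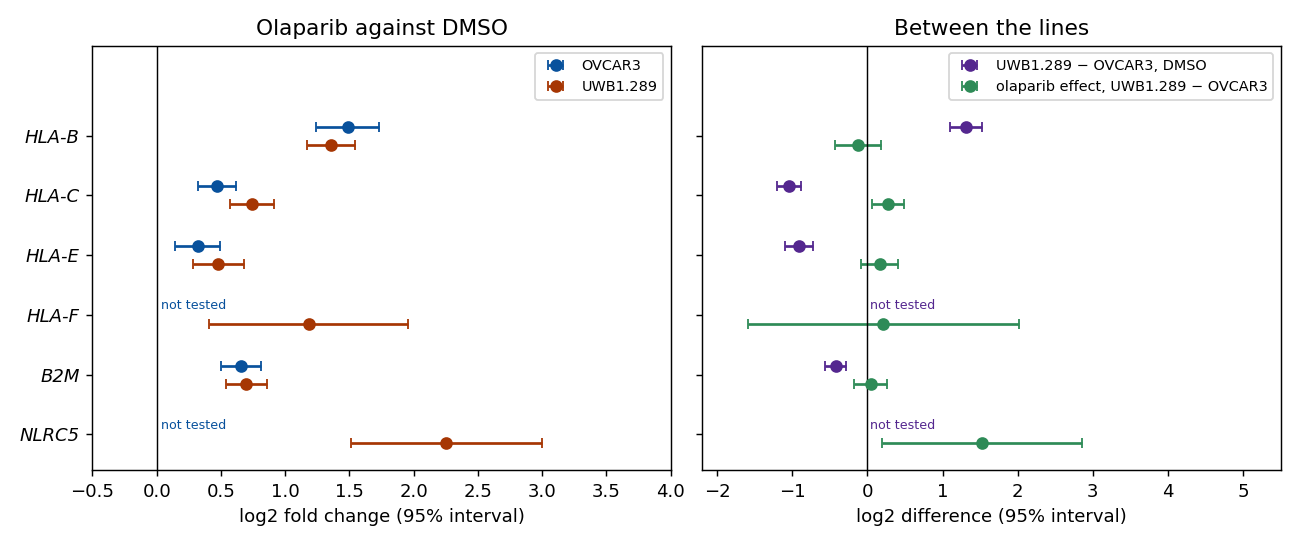
Log2 fold changes with 95% intervals from edgeR, on the left for olaparib against DMSO in OVCAR3 (blue) and UWB1.289 (brown), on the right for UWB1.289 against OVCAR3 with DMSO (purple) and for the difference of the olaparib effect (green). HLA-F and NLRC5 were below the count filter where marked as not tested, and the green intervals of HLA-B, HLA-E, HLA-F and B2M include 0.

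Whether the 2 lines started from different levels was asked of the DMSO libraries. The heavy chains differed in opposite directions, HLA-B being 2.48-fold higher in UWB1.289 and HLA-C and HLA-E 2.06-fold and 1.88-fold lower, and B2M was 1.34-fold lower. All 4 tested members passed the test, 1 higher and 3 lower, in a comparison in which 79.9% of tested genes did so (39.8% higher and 40.1% lower). For these 4 genes the lines were also separate, HLA-B being higher in every UWB1.289 control and the other 3 lower. Of all tested genes, 69.4% were separate in either direction. HLA-F, which was not tested here, was higher in every UWB1.289 control as well. The log2 differences, UWB1.289 minus OVCAR3, were 1.31 ± 0.104 for HLA-B (adjusted p = 1.61e-12), -1.04 ± 0.0755 for HLA-C (adjusted p = 1.89e-13), -0.91 ± 0.0909 for HLA-E (adjusted p = 2.42e-10) and -0.42 ± 0.0690 for B2M (adjusted p = 2.50e-06). By the study's limits HLA-B and HLA-C were called (38.4% of tested genes). HLA-F was below the filter, with 0 to 5 counts in OVCAR3 and 6 to 11 in UWB1.289 (exact permutation p = 0.0286, the smallest that 4 against 4 libraries can give). It passed edgeR's test with no filter (log2 difference 1.40, adjusted p = 0.0602) and in the fit to all 16 libraries (1.38, adjusted p = 0.0403), which makes 5 members in place of 4. NLRC5 was below it too, at 0.928 ± 0.600 CPM in OVCAR3 and 0.815 ± 0.259 CPM in UWB1.289 (SD, n = 4), and its groups overlapped (exact permutation p = 0.8).

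Ordered over all 4 groups, HLA-C and HLA-E rose from UWB1.289 with DMSO through UWB1.289 with olaparib and OVCAR3 with DMSO to OVCAR3 with olaparib, and no neighbouring groups overlapped. Mean HLA-C was 86.6 ± 5.94, 144 ± 6.82, 175 ± 3.72 and 246 ± 12.6 CPM in that order (SD, n = 4), and mean HLA-E was 44.2 ± 2.57, 61.0 ± 3.15, 81.6 ± 7.97 and 104 ± 4.76 CPM. B2M followed another order, with 393 ± 25.4 CPM in UWB1.289 with DMSO, 518 ± 40.4 in OVCAR3 with DMSO, 631 ± 37.5 in UWB1.289 with olaparib and 828 ± 54.7 in OVCAR3 with olaparib, again without overlap. HLA-B was lowest in OVCAR3 with DMSO (32.4 ± 4.87 CPM) and highest in UWB1.289 with olaparib (208 ± 13.4 CPM), and the middle groups, UWB1.289 with DMSO (81.8 ± 8.43 CPM) and OVCAR3 with olaparib (92.0 ± 10.9 CPM), overlapped. HLA-F went from 0.459 ± 0.333 CPM in OVCAR3 with DMSO to 0.954 ± 0.742 with olaparib, 1.26 ± 0.394 in UWB1.289 with DMSO and 2.83 ± 0.899 with olaparib, and each neighbouring pair overlapped. NLRC5 was at 3.995 ± 0.698 CPM in UWB1.289 with olaparib, above every library of the other 3 groups, which overlapped each other.

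Whether the response to olaparib differed between the lines was tested as an interaction over all 16 libraries. No member passed this test with edgeR (0 of 6, against 10.9% of all tested genes), 2 of the 6 had an unadjusted p below 0.05, and DESeq2 called 1, HLA-C. The difference in log2 fold change, UWB1.289 minus OVCAR3, was -0.13 for HLA-B (95% interval -0.43 to 0.18, adjusted p = 0.705), 0.16 for HLA-E (-0.09 to 0.41, adjusted p = 0.499) and 0.04 for B2M (-0.18 to 0.26, adjusted p = 0.894). For HLA-C it was 0.28 (0.06 to 0.49, adjusted p = 0.111), and the adjusted p was 0.0762 with the replicate number as a block, 0.0673 with DESeq2 and 0.0840 without olaparib replicate 3 of OVCAR3. For NLRC5 it was 1.52 (0.19 to 2.85, adjusted p = 0.168), and 1.83 with an adjusted p of 0.0901 without DMSO replicate 3 of OVCAR3, which held 2 counts. For HLA-F the interval was wide (0.21, -1.59 to 2.02, adjusted p = 0.944).

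Ratios of counts within a library need no scaling between libraries and show whether members changed unequally. They were described and not tested, and since they also depend on how completely the reads of each gene were assigned, only their change between groups was read. HLA-B counts per HLA-C count were 0.161, 0.217, 0.2005 and 0.161 in OVCAR3 with DMSO and 0.417, 0.383, 0.373 and 0.321 with olaparib. In UWB1.289 they were 0.829, 0.978, 0.951 and 1.02 with DMSO and 1.36, 1.42, 1.59 and 1.43 with olaparib. The treated libraries were above the controls in both lines, and the 4 groups did not overlap. Among the counts of the 4 heavy chains, the share of HLA-B was 11.2% ± 1.45 in OVCAR3 with DMSO and 20.7% ± 1.93 with olaparib, and in UWB1.289 it was 38.2% ± 1.86 with DMSO (SD, n = 4) and between 48.7% and 52.0% in the olaparib libraries. HLA-C took 60.6% ± 2.25 and 55.6% ± 1.23 in OVCAR3 and 40.5% ± 1.88 and 34.6% ± 1.32 in UWB1.289.

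HLA-E counts per HLA-C count overlapped between treatments in OVCAR3 (0.465 ± 0.0448 with DMSO and 0.421 ± 0.0307 with olaparib, SD, n = 4), and in UWB1.289 were lower in every treated library than in every control (0.511 ± 0.0383 and 0.425 ± 0.0157). B2M counts per heavy-chain count were 1.80, 1.96, 1.73 and 1.66 in OVCAR3 with DMSO and 1.95, 1.92, 1.83 and 1.77 with olaparib, which overlap. In UWB1.289 they were 1.86, 1.80, 1.83 and 1.87 with DMSO and 1.56, 1.498, 1.40 and 1.62 with olaparib. There every treated library had fewer B2M counts per heavy-chain count than every control.

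**Figure D4:**
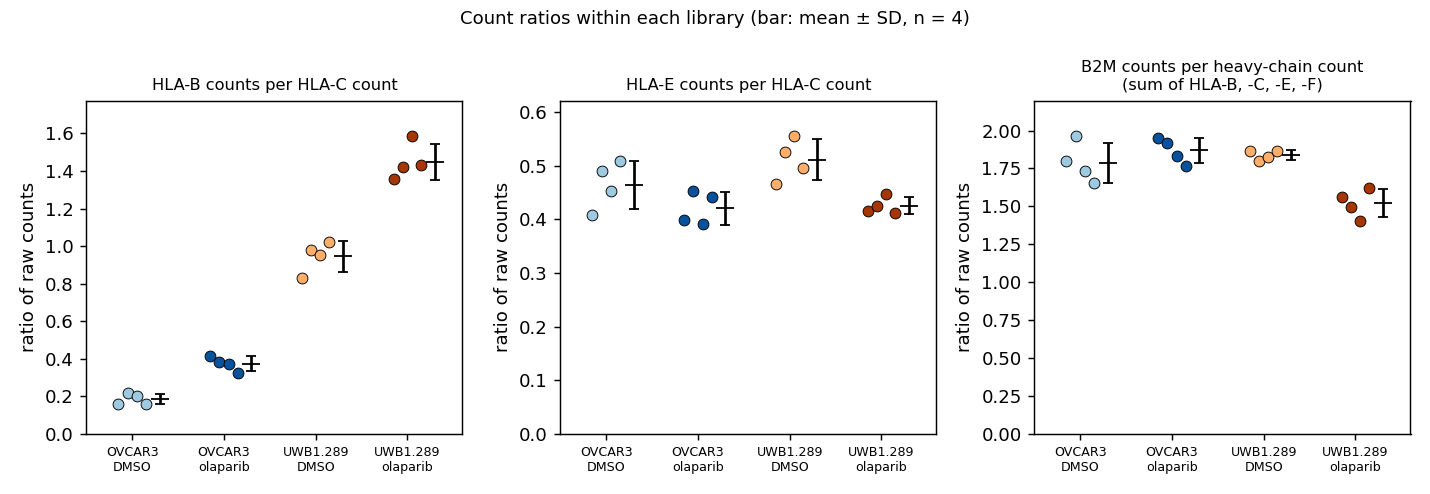
Ratios of raw counts within each of the 16 libraries, with 1 point per library and a bar for mean ± SD of 4 replicates, for HLA-B per HLA-C, HLA-E per HLA-C and B2M per summed heavy-chain count (HLA-B, HLA-C, HLA-E and HLA-F). HLA-B per HLA-C separates all 4 groups, and B2M per heavy-chain count is lowest in UWB1.289 with olaparib (1.40 to 1.62).

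The genes around these members in the pathway were taken from lists written with earlier results of these data known. Of 12 genes that act upstream of NLRC5 in interferon signalling, 8 rose in OVCAR3 and 5 in UWB1.289 and none fell, with median log2 fold changes of 0.32 and 0.44. In OVCAR3 those that rose included IRF1, a transcription factor of the interferon response (log2 fold change 0.72, adjusted p = 6.34e-05), the interferon-gamma receptor chain IFNGR1 (0.65, adjusted p = 0.0264) and the kinase TYK2 (0.56, adjusted p = 0.00229). In UWB1.289 they included IRF1 (1.42, adjusted p = 5.35e-08) and IFNGR1 (1.09, adjusted p = 0.00700). The change of IRF1 was larger in UWB1.289 by 0.70 on the log2 scale (adjusted p = 0.00760) in the interaction test, while that of TYK2 was smaller (log2 difference -0.79, adjusted p = 0.00127).

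Of the peptide supply and loading genes, 5 rose and 1 fell among 13 tested in OVCAR3, and 6 rose and none fell among 12 in UWB1.289. The immunoproteasome subunit PSMB9 (0.85, adjusted p = 0.00327), the peptide transporter subunit TAP1 (0.69, adjusted p = 0.0217) and the proteasome activator PSME2 (0.53, adjusted p = 2.11e-04) changed most in OVCAR3. PDIA3, a chaperone of the loading complex, fell there by 0.20 on the log2 scale (adjusted p = 0.0717). In UWB1.289 the largest log2 fold changes were those of PSMB9 (2.19, adjusted p = 1.55e-07), TAP1 (1.97, adjusted p = 2.76e-09) and PSMB8, another immunoproteasome subunit (0.90, adjusted p = 2.84e-04). The differences between the lines passed the interaction test for PSMB9 (1.34, adjusted p = 0.00308), TAP1 (1.28, adjusted p = 0.00143) and PSMB8 (0.82, adjusted p = 0.0150). The list medians were 0.08 in OVCAR3 and 0.29 in UWB1.289.

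Of the 11 genes of the complex through which NLRC5 acts, and of its cofactors, none rose in OVCAR3 and 2 fell, the Y-box factor subunit NFYC (log2 fold change -0.48, adjusted p = 0.0108) and the acetyltransferase KAT2B (-0.70, adjusted p = 0.0540). In UWB1.289 edgeR and DESeq2 called 0 of 11, and 0 had an unadjusted p below 0.05 in edgeR. The medians were -0.02 and -0.01.

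Among 15 other class I and class I-like genes, 3 of 7 tested rose in OVCAR3 and 1 of 8 in UWB1.289. Of all tested genes, 15.5% and 7.77% rose. The list medians were 0.42 in OVCAR3 and 0.05 in UWB1.289. MICB, a stress-induced ligand of the NKG2D receptor, rose from 4.23 ± 1.36 to 17.8 ± 2.66 CPM in OVCAR3 (log2 fold change 2.06, adjusted p = 4.55e-07) and stood at 50.2 ± 1.47 and 58.5 ± 3.38 CPM in UWB1.289 (adjusted p = 0.121). Its change was smaller in UWB1.289 (log2 difference -1.83, adjusted p = 4.46e-07). HLA-G, a non-classical heavy chain, had 0 counts in all OVCAR3 libraries, which allows up to 3 counts in each by counting error alone, and 2 to 7 counts in UWB1.289 with DMSO and 8 to 24 with olaparib, which was too low to be tested.

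Class II genes, which are driven by CIITA, the relative of NLRC5, mostly had few counts. In OVCAR3 2 of 5 tested rose, HLA-DRB1 (log2 fold change 1.19, adjusted p = 0.00236) and the invariant chain CD74 (1.02, adjusted p = 4.17e-07), and CIITA itself had 1 to 11 counts with DMSO and 6 to 14 with olaparib. In UWB1.289 CD74 was the single gene tested (0.32, adjusted p = 0.0466), HLA-DRA and HLA-DRB1 had 0 counts in all 8 libraries, and CIITA had 1 count in total with DMSO and 2 with olaparib.

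**Figure D5:**
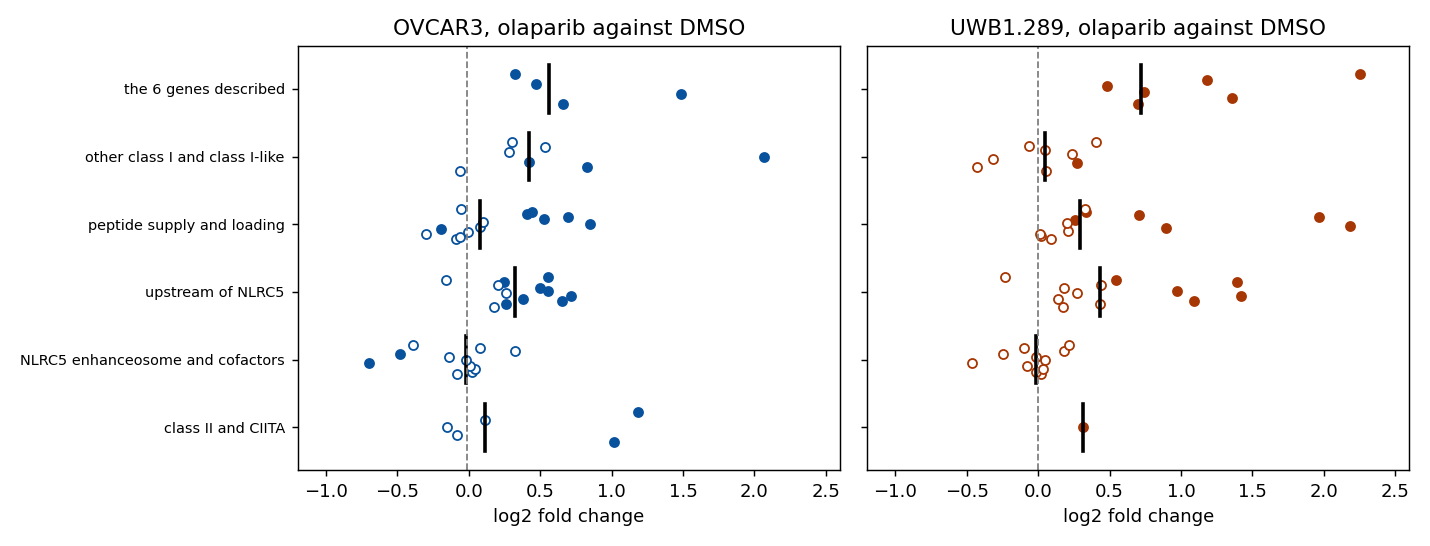
Log2 fold change with olaparib of the tested genes in each list, in OVCAR3 (left) and UWB1.289 (right), with filled points for genes past the test (adjusted p below 0.1), black bars for list medians (for the 6 genes, over the 4 tested in both lines) and a dashed line for the median of all tested genes. The 6 genes described lie to the right of the dashed line wherever tested, and the NLRC5 complex is centred on it (medians -0.02 and -0.01).

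Likeness to other genes was measured with Pearson's r of log2 CPM over the 16 libraries after removal of each line's mean, among 11666 genes tested in both lines. It is a description, since all points share the split into treated and control libraries. HLA-B and B2M were most like each other (r = 0.987), and the same 3 genes were most like both, TNFAIP2 (0.983 with HLA-B, 0.981 with B2M), NFKBIA, the NF-kB inhibitor alpha (0.977 and 0.964), and PI3 (0.967 and 0.951). HLA-C was most like PLSCR1 (0.976), IRF7 (0.971) and GBP5 (0.969), and HLA-E was most like SOD2 (0.966), NFKBIZ (0.953) and IFI27 (0.952). NLRC5 was most like TRIM21 (0.894), HERC5 (0.893) and CA8 (0.890). HLA-F reached only 0.826 with ISYNA1, 0.821 with TMEM138 and 0.820 with MT-ND4L, and its r with NLRC5, 0.545, was the lowest between members.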

How the data were processed

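The authors prepared QuantSeq 3' mRNA libraries from total RNA, and the deposited table holds their whole-number read counts per gene, not normalized. The submitters' processing notes name STAR 2.7.9a, featureCounts 2.0.0 and hg38, and the study's methods name BBDuk trimming and GENCODE release 38. How reads that map to several genes, overlapping genes and strand were handled is not given in the sources used here. All 16 libraries were used. Groups came from the sample labels, which number the replicates, and the series' design says that the experiment was repeated 4 times. P-values measure the spread between these samples.

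Tests ran in R 4.3.3 with edgeR 4.0.16 (quasi-likelihood F test after TMM scaling and filterByExpr, with p-values adjusted by Benjamini-Hochberg over every gene tested), on 8 libraries per olaparib comparison, the 8 DMSO libraries between lines, and all 16 for the interaction. HLA-F and NLRC5 below the filter were given a two-sided exact permutation test, added after seeing the data. Standard errors were derived from the F statistic, and 95% intervals from the t distribution. The scripts were tested on simulated data. Members and lists were chosen with earlier results of these data known. The text names every member, at most 3 genes per list and comparison among those past the test with the largest change, and the 3 genes most like each member (prior count 2). HLA-G, HLA-DRA, CIITA and the further genes given with values were named after these were seen. Some genes of the lists are counted with them but not reported here. The marker lists held 8 ovarian carcinoma, 8 leukocyte, 5 fibroblast and 3 endothelial genes.

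Same-numbered DMSO and olaparib libraries of UWB1.289 deviated together (r = 0.100 to 0.186 over 10662 genes, best with their own number in 4 of 4), which was taken as pairing. The tests in the report were made without the pairs, and the blocked fit is an alternative. In OVCAR3 (0.0244 to 0.120) and between the lines (0.00501 to 0.0252) they were only numbers. Alternatives were DESeq2 1.42.0, its size factors, total-count scaling, no filter, an adjusted p below 0.05, the study's limits, all 16 libraries in 1 fit, a replicate block, each library left out in turn and, for likeness, a prior count of 0.5. Positions are from GENCODE release 44 and promoters from RefSeq.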

Additional observations from a re-analysis of the deposited data

Results flagged for a closer look

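Of the 24 sets of 4 libraries formed by the 6 genes and 4 groups, 2 held a library far from the other 3 by Dixon's test (critical value 0.829), where chance marks about 1 in 20. HLA-C was high in olaparib replicate 3 of OVCAR3 (265 CPM, against 238 to 243 CPM in the others). B2M was low in olaparib replicate 4 of OVCAR3 (747 CPM, against 844 to 864 CPM), the library that stood apart from its group over all genes.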

How the results depend on the processing

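The olaparib effects on HLA-B, HLA-C, HLA-E and B2M in both lines and the differences between the DMSO groups of the same 4 genes kept their direction and their side of the threshold under all 14 alternative fits each. The effect on NLRC5 in UWB1.289 did so too. Being high with olaparib was a condition of its test in every fit that used the filter, so its unchanged calls add no support. The replicate block changed no other call than that of HLA-C in the interaction (0.28, adjusted p = 0.0762, 1 member past the test). In UWB1.289, where the numbers were taken as pairs, it moved the count of genes past the test from 1768 to 2379. In OVCAR3, where 1 of 4 libraries correlated best with its own number, the block gave 4296 genes in place of 4105. With the study's limits, 682 genes and 1 member were called in OVCAR3 and 282 and 3 in UWB1.289, HLA-F and NLRC5 among the 3. The same limits called 5127 and 2 between the lines and 521 genes in the interaction. These limits are stricter by construction, and HLA-F and NLRC5 entered the UWB1.289 test through the olaparib libraries. HLA-F in UWB1.289 had a log2 fold change of 1.18 with an adjusted p of 0.112 in the fit to all 16 libraries, and ranged from 0.97 to 1.40 on leaving out 1 library. In the interaction, DESeq2 called 1 member (HLA-C, 0.26). On leaving out 1 library, the number of members called ranged from 0 to 1, and the differences ranged from 0.23 to 0.31 for HLA-C, from 1.17 to 1.83 for NLRC5, from -0.0162 to 0.0702 for B2M and from -0.11 to 0.74 for HLA-F, the last pair changing sign. The cause was not tested. With a prior count of 0.5, 14 of the 18 genes named as most like a member were the same. SOD2 replaced PI3 for B2M, so HLA-B and B2M no longer shared all their genes. MTHFD2 and MEX3D replaced ISYNA1 and TMEM138 for HLA-F, and IFI35 replaced CA8 for NLRC5. No scaling moved the median log2 fold change of all genes by over 0.1. Counts of a few reads per library limit what can be seen of HLA-F, and of NLRC5 outside UWB1.289 with olaparib.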
